A study of Homo sapiens with 6 samples.

Results

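The genes described here are 10 genes grouped around the azurophil granule, the storage granule that myeloid progenitors fill as they mature: MPO, ELANE, PRTN3, AZU1, CTSG, MS4A3, RNASE2, CFD, LYZ and SERPINB1. Not all of them encode granule contents: MS4A3 encodes a membrane protein that marks progenitors, and SERPINB1 a cytosolic protease inhibitor. They were found by gene symbol among the 33981 genes of the deposited count table, and all 10 were among the 19182 genes with enough counts to be tested. The members were chosen by name with the counts of this same contrast already known, so their differences between the groups are given as a description, without a test. Their levels were measured by bulk mRNA sequencing of THP-1, an established cell line from a patient with acute myeloid leukemia (AML) of monocytic type. The cells had been infected with lentivirus carrying either a scrambled shRNA (samples C1, C3 and C4) or an shRNA against NFIC (sh494 in the study's naming), a transcription factor of the nuclear factor I family (samples N1, N2 and N3), and GFP+ cells were sorted 4 days later. The control is a scrambled shRNA in the sample labels, whereas the study's methods describe it as a vector with GFP alone, and the study's text names a sample C2 where the labels have C3. The labels were followed. All 6 samples came from a single line, and the labels do not say whether the 3 samples of a group were separate cultures, so the spread between them may be technical and any p-value measures only that spread.

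Azurophil granules, also called primary granules, are laid down at the promyelocyte stage of granulocyte development and, in smaller numbers, in monocyte precursors. Transcription of many of their content genes is highest in granulocyte-monocyte progenitors and promyelocytes and is shut off as the cells mature, while the proteins persist in the granules. The contents include myeloperoxidase, a family of related serine proteases with an inactive relative, and bactericidal proteins, and the neutral serine proteases are held in check in the cytosol by serpins. This does not hold for every content gene, and lysozyme, for example, is still transcribed in mature monocytes and macrophages.

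Total counts lay between 20369543 and 24809720 per sample, and 3 counts corresponded to between 0.122 and 0.146 CPM (counts of a gene per 1000000 counts of the sample). NFIC itself was at 41.9 ± 0.445 CPM (SD, n = 3) in the scrambled samples and at 21.0 ± 1.52 CPM with the NFIC shRNA (log2 fold change -0.99, adjusted p = 3.73e-09 in edgeR), NFIX also fell (-0.54), and NFIA, called lower as well, was under 1 CPM in both groups. Across all genes 59.9% of those tested were called at an adjusted p under 0.05 in edgeR, 30.3% lower and 29.6% higher with the NFIC shRNA, so a call was the usual outcome in this contrast. C3 and N3 stood apart from the other 4 samples along the second principal component, at -18.0 and -20.5 against 4.63 to 15.8, and this separation crossed the groups. Of 14 monocyte markers 13 were tested, with a summed level of 1433 to 1476 CPM in the scrambled samples and 957 to 1020 CPM with the NFIC shRNA. Of these 13, 6 fell and 3 rose. CCR2 fell from 152 to 25.1 CPM, CD4 from 456 to 278 CPM and CD68 from 261 to 130 CPM, while CD14 rose from 7.16 to 11.2 CPM and ITGAM from 50.4 to 100.1 CPM, and their part in the differences described below was not tested. CD34, the stem and progenitor marker, had almost no counts.

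Of the 10 genes, 8 were lower and 2 were higher with the NFIC shRNA, and in 9 of the 10 the 3 samples of one group lay wholly outside the range of the other. PRTN3 and AZU1 were lowest relative to the scrambled samples, at 29.2% and 33.6% of their level there, and LYZ and SERPINB1 were the 2 that were higher, at 164% and 181%. All 10 were called in edgeR, beside 59.9% of all genes tested, and groups that did not overlap were seen for 65.2% of all genes, so neither count is read as a property of these genes. The call of MPO was not stable: it was absent in 9 of 18 alternatives, among them 4 of the 6 fits that left out 1 sample. The other members were called in all 18. The median log2 fold change of the 10 genes was -0.63, beside -0.01 over all genes tested. In a bulk sample fewer cells of a type and less RNA per cell cannot be told apart.

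**Figure D1:**
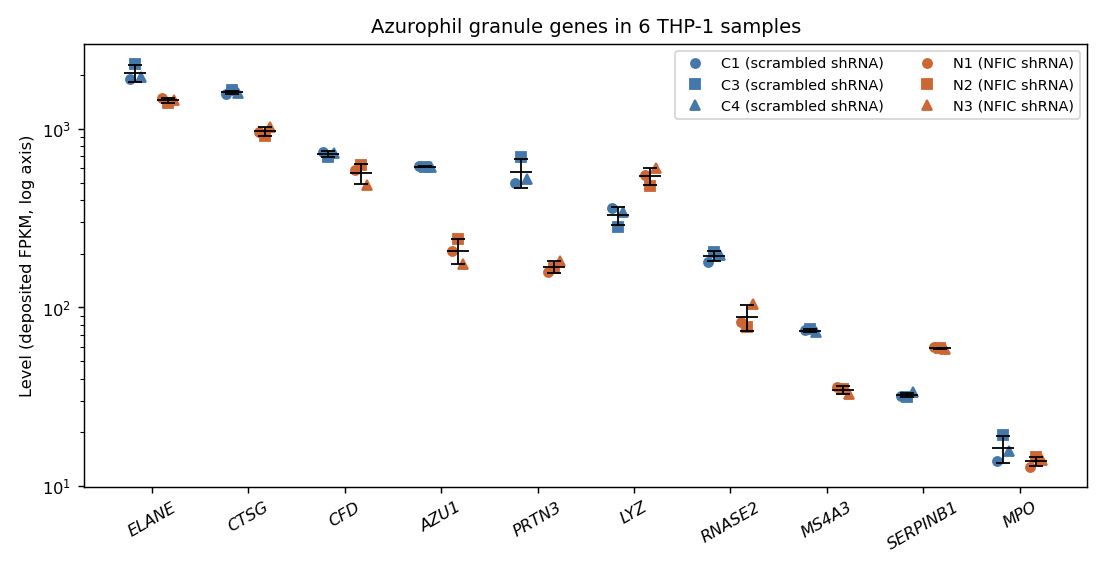
Levels of the 10 genes described here in each of the 3 scrambled and 3 NFIC shRNA samples, in the deposited FPKM on a log axis, ordered by their scrambled level. Points are samples, and lines with bars are group means with 1 SD. Only MPO has groups that overlap, and LYZ and SERPINB1 are the only genes with the NFIC shRNA points above the scrambled points.

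The genes differed widely in abundance before any comparison of the groups. On the per-length scale of the deposited FPKM values, ELANE was the most abundant of the 10 in the scrambled samples, at 2047 ± 222 FPKM (SD, n = 3), where it ranked 24 among all genes. CTSG followed at 1599 ± 39.2 FPKM and CFD at 723 ± 23.6. AZU1 at 613 ± 4.60 and PRTN3 at 570 ± 106 FPKM overlapped in their samples and could not be ordered. Below them came LYZ at 328 ± 39.2, RNASE2 at 194 ± 12.8, MS4A3 at 74.3 ± 1.56 and SERPINB1 at 32.3 ± 0.981 FPKM. MPO, the gene most often used to define the myeloid lineage, was the least abundant, at 16.3 ± 2.84 FPKM, and ranked 3237. With the NFIC shRNA the order began again with ELANE and CTSG and ended again with MPO, whereas LYZ at 545 ± 62.5 FPKM overlapped CFD at 565 ± 73.1, AZU1 and PRTN3 still overlapped, and SERPINB1 at 59.2 ± 0.484 stood above MS4A3 at 34.5 ± 1.69. Among the 100 genes with the highest FPKM there were 5 of the 10 in the scrambled samples and 4 with the NFIC shRNA.

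The 10 genes together took 0.794% ± 0.0307 of all counts in the scrambled samples and 0.539% ± 0.00986 with the NFIC shRNA. Their summed level was 7800, 8364 and 7846 CPM in C1, C3 and C4 and 5438, 5270 and 5382 CPM in N1, N2 and N3, a ratio of the means of 0.670. ELANE and CTSG made up more of this sum than the other 8 genes together in both groups.

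The serine proteases form the core of the group. ELANE (neutrophil elastase), PRTN3 (proteinase 3) and CTSG (cathepsin G) encode active enzymes, and AZU1 encodes azurocidin, a relative that has lost protease activity and acts as an antimicrobial protein. AZU1, PRTN3 and ELANE lie side by side with CFD within 42.8 kb of chromosome 19 (GRCh38, 825097 to 867884, plus strand). CTSG lies apart from them on chromosome 14, from 24573518 to 24576250 on the minus strand.

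PRTN3 was at 560, 775 and 583 CPM in C1, C3 and C4 and at 175, 184 and 201 CPM in N1, N2 and N3. Every NFIC shRNA sample was far below every scrambled sample, and C3 was 1.36 times the mean of the other scrambled samples. The log2 fold change was -1.77 (SE 0.12), a value that 1.95% of all tested genes had or went below.

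AZU1 was at 1118, 1100 and 1097 CPM in the scrambled samples and at 371, 433 and 311 CPM with the NFIC shRNA. The scrambled samples were nearly identical, the NFIC shRNA samples were more spread, and the log2 fold change was -1.57 (SE 0.09). A value that low or lower was found for 2.83% of tested genes.

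CTSG was at 2169, 2270 and 2202 CPM in the scrambled samples and at 1324, 1258 and 1394 CPM with the NFIC shRNA. The groups were well apart and tight, and CTSG stood at 59.9% of its scrambled level with a log2 fold change of -0.74 (SE 0.05).

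ELANE was at 1974, 2395 and 2022 CPM in C1, C3 and C4 and at 1535, 1442 and 1487 CPM in N1, N2 and N3. The groups did not overlap, although C3 was 1.20 times the mean of C1 and C4, and the log2 fold change was -0.52 (SE 0.06). ELANE stood at 69.8% of its scrambled level while its neighbours PRTN3 and AZU1 stood at 29.2% and 33.6%.

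The sequences upstream of these genes are shown because the members differ in size of change while sharing a tissue pattern and, for some of them, a locus. The 150 bases before the RefSeq transcription start (GRCh38.p14), written 5′ to 3′ on the gene's strand, are given for the 4 members whose window holds no annotated exon. They are chr19:840849-840998 (plus strand) for PRTN3, chr19:827687-827836 (plus strand, within an intron of the longer annotated AZU1 gene) for AZU1, chr14:24576251-24576400 (minus strand) for CTSG and chr14:20955337-20955486 (plus strand) for RNASE2. Capitals mark matches on either strand to TTNNGNAA (C/EBP), GAGGAA (PU.1), AACNG (MYB) and TTGGC (a half-site of the NFI family), which may touch or overlap.
PRTN3: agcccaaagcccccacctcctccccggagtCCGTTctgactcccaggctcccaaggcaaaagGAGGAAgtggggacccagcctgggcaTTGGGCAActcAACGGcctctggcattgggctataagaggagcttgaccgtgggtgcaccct
AZU1: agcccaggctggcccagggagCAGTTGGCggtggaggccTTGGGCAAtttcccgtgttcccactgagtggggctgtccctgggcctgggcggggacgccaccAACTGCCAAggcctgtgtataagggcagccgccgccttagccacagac
CTSG: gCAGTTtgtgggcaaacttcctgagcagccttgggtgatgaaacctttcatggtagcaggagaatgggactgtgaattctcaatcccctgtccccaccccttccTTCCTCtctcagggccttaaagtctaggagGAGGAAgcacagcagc
RNASE2: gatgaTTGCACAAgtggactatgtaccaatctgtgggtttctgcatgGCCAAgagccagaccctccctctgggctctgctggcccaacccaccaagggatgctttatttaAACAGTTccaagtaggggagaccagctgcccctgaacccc

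RefSeq promoters were found for 7 of the 10 genes (AZU1, CFD, CTSG, MS4A3, PRTN3, RNASE2 and SERPINB1; MPO, ELANE and LYZ had no entry), and the 250 bases before the start were searched in these and in all 35116 promoters of the table. PRTN3 and AZU1 held the same C/EBP match, TTGGGCAA, which began 62 and 111 bases before the start. A C/EBP match was present in 4 of the 7 (AZU1, MS4A3, PRTN3 and RNASE2) and in 33.2% of all promoters. A PU.1 match was present in 2 (CTSG and PRTN3) and in 23.6% of all, and a MYB match in 6 (all but CFD) and in 70.6% of all. The NFI half-site was present in 3 (AZU1, CTSG and RNASE2) and in 40.8% of all promoters, and in AZU1 both half-sites overlapped a MYB match. The full NFI site, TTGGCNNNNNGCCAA, was found in none of the 7 and in 0.0285% of all promoters, and the RUNX word TGTGGT and the TATA word TATAAA were found in none of the 7 and in 11.0% and 10.7% of all. SERPINB1, the higher member with an entry, held a MYB match alone. These are matches of letters and not sites of binding.

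The remaining 4 lower genes encode contents or surface proteins of different families. MS4A3, on chromosome 11 from 60056587 to 60071115, encodes a membrane protein of the tetraspan type that marks granulocyte-monocyte progenitors. It was at 158, 159 and 152 CPM in the scrambled samples and at 74.9, 73.5 and 67.4 CPM with the NFIC shRNA. Both groups were tight and far apart, with 46.0% of the scrambled level remaining and a log2 fold change of -1.12 (SE 0.05). RNASE2, the eosinophil-derived neurotoxin, was at 132, 150 and 143 CPM against 60.1, 55.9 and 74.8 CPM, a log2 fold change of -1.15 (SE 0.09). N3 was the highest of the NFIC shRNA samples and lay below every scrambled sample. RNASE2 has a close copy, RNASE3, so the split of reads between the pair is uncertain.

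CFD encodes complement factor D, a serine protease that cleaves factor B, and lies at the far end of the chromosome 19 cluster. It was at 912, 854 and 894 CPM in the scrambled samples and at 714, 762 and 584 CPM with the NFIC shRNA. The groups did not overlap, N3 lay well below N1 and N2, and the log2 fold change was -0.37 (SE 0.08), with 77.4% of the scrambled level remaining. Its exons share 255 bases with MED16 on the opposite strand, which was at 33.2 CPM in the scrambled samples and 36.7 CPM with the NFIC shRNA (adjusted p = 0.0671; 0.0386 with total counts as library sizes).

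MPO encodes myeloperoxidase, which makes hypochlorous acid from hydrogen peroxide. It was at 49.3, 69.1 and 56.0 CPM in C1, C3 and C4 and at 45.5, 51.2 and 49.2 CPM in N1, N2 and N3. MPO was the only one of the 10 whose groups overlapped, because C1 lay at the level of N3 and below N2, and its log2 fold change was -0.26 (SE 0.10). The value depended on which scrambled sample entered: it was -0.12 without C3, the highest of them, and -0.37 without C1, the lowest.

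**Figure D2:**
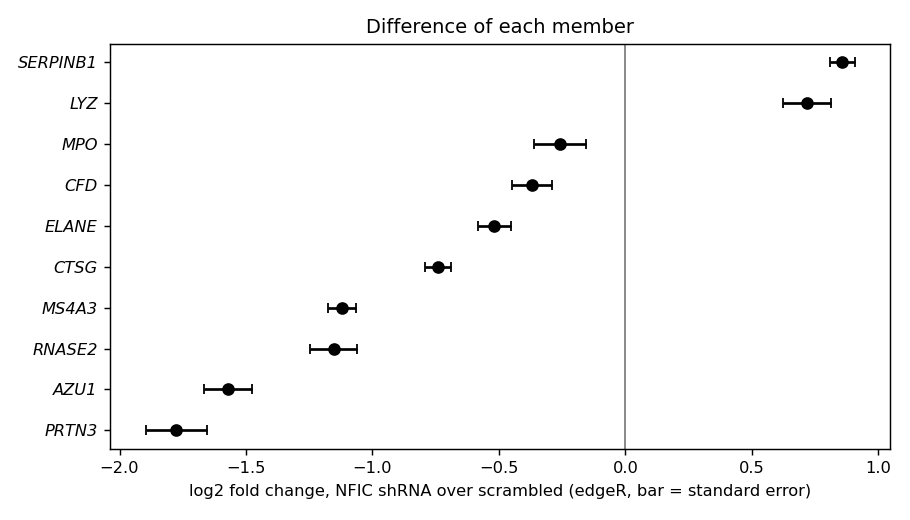
Log2 fold change of each of the 10 genes with the NFIC shRNA over scrambled, from edgeR. Points are estimates with bars of 1 SE. PRTN3 is the lowest at -1.77 and SERPINB1 the highest at 0.86, and MPO at -0.26 is the nearest to 0.

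LYZ and SERPINB1 went the other way. LYZ encodes lysozyme, the enzyme that cuts the peptidoglycan of bacterial cell walls, on chromosome 12 from 69348381 to 69354234. It was at 628, 495 and 594 CPM in C1, C3 and C4 and at 956, 829 and 1035 CPM in N1, N2 and N3. Every NFIC shRNA sample was above every scrambled sample, C3 was at 0.810 of the mean of C1 and C4, and the log2 fold change was 0.72 (SE 0.09), a value that 8.01% of tested genes had or exceeded. An annotated RNA on the opposite strand, AC020656.1, shares 599 exon bases with LYZ and was at 274 ± 33.5 CPM in the scrambled samples and 454 ± 52.4 CPM with the NFIC shRNA, a log2 fold change of 0.73. The library kit is not stated to keep strand, so reads of LYZ and of this RNA cannot be told apart.

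SERPINB1 encodes the cytosolic inhibitor of neutrophil elastase, proteinase 3 and cathepsin G, on chromosome 6 from 2832332 to 2841959. It was at 99.3, 97.2 and 103 CPM in the scrambled samples and at 183, 181 and 178 CPM with the NFIC shRNA. It was the tightest of the 10 genes in the NFIC shRNA samples and well apart between groups, with a log2 fold change of 0.86 (SE 0.05) that 5.24% of tested genes had or exceeded.

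Ratios of 2 members' counts within a sample do not depend on the scaling between samples, and they set the inhibitor against its targets. There were 0.160 ± 0.0297 counts of SERPINB1 per count of PRTN3 in the scrambled samples (n = 3) and 0.971 ± 0.0803 with the NFIC shRNA, a 6.08-fold difference. Against CTSG the ratio was 0.0451 ± 0.00203 and 0.137 ± 0.00823, and against ELANE 0.0472 ± 0.00577 and 0.121 ± 0.00347. Per count of ELANE, PRTN3, CTSG and AZU1 together, SERPINB1 stood at 0.0171, 0.0149 and 0.0174 in C1, C3 and C4 and at 0.0538, 0.0545 and 0.0524 in N1, N2 and N3. The inhibitor's counts were 3.26 times as high relative to the protease family with the NFIC shRNA, with every sample of the group above every scrambled sample. AZU1 is part of this family but not among the targets named above. SERPINB1 was a higher member and the proteases were lower ones, so the ratios restate those changes. They are ratios of mRNA counts, and protein was not measured here.

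Within the protease family the balance also differed between groups. PRTN3 counts per count of ELANE were 0.298 ± 0.0219 in the scrambled samples and 0.126 ± 0.0106 with the NFIC shRNA, and AZU1 counts per count of ELANE were 0.523 ± 0.0561 and 0.250 ± 0.0464. CTSG kept closer to ELANE, at 1.05 ± 0.0843 and 0.891 ± 0.0409. The ratio of CFD to ELANE was 0.420 ± 0.0560 and 0.462 ± 0.0681 with overlapping samples, so these 2 neighbours could not be separated by their change, while CFD per count of PRTN3 was 1.42 ± 0.281 and 3.71 ± 0.693. LYZ, a higher granule content, stood per count of AZU1, a lower one, at 0.517 ± 0.0595 in the scrambled samples and 2.61 ± 0.707 with the NFIC shRNA.

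**Figure D3:**
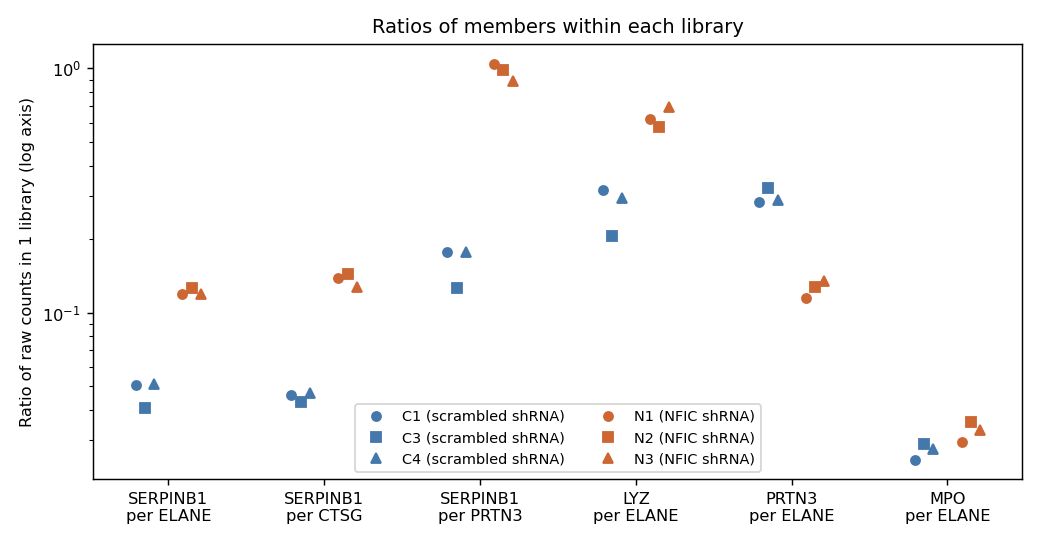
Ratios of counts of 2 members within each sample, on a log axis, in the 3 scrambled and 3 NFIC shRNA samples. Points are samples. SERPINB1 per PRTN3 goes from a mean of 0.160 to 0.971, the widest gap of the 6 ratios drawn, and MPO per ELANE, from 0.0272 to 0.0327, has the narrowest.

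Samples of one group varied in a shared way for some of the members. In the scrambled samples C3 was the highest for MPO, ELANE, PRTN3, CTSG, MS4A3 and RNASE2 and the lowest for CFD, LYZ and SERPINB1. The difference was widest for MPO, ELANE, PRTN3 and LYZ, at 1.31, 1.20, 1.36 and 0.810 of the mean of C1 and C4. In the NFIC shRNA samples N3 was the highest for PRTN3, CTSG, RNASE2 and LYZ and the lowest for AZU1, MS4A3, CFD and SERPINB1. C3 and N3 are the samples that stood apart over all genes. With both left out the log2 fold changes were -0.43 for ELANE and 0.55 for LYZ, each in its former direction but smaller than the -0.52 and 0.72 of all 6 samples. MPO was the only member not called in that fit.

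Neighbours of the chromosome 19 cluster were examined for whether the 4 members there moved with their surroundings. Of 8 other tested genes within 100 kb, 4 fell, 3 rose and 1 was not called, with a median log2 fold change of -0.02. On the side of AZU1, PLPPR3 fell from 197 to 152 CPM (log2 fold change -0.37, adjusted p = 3.67e-06) and PTBP1 rose from 360 to 410 CPM (0.19, adjusted p = 0.00330). PALM, farther out, fell from 20.6 to 12.2 CPM (-0.76, adjusted p = 1.16e-05). On the side of CFD, R3HDM4 fell by 0.19 on the log2 scale (adjusted p = 0.0181), a call that ended without C1 (adjusted p = 0.0834) and without N1 (0.0897), and ARID3A, a transcription factor gene, rose from 147 to 265 CPM (0.85, adjusted p = 6.14e-10). MIR3187 (-0.32, adjusted p = 0.00123) lies inside PLPPR3 and MIR4745 (1.62, adjusted p = 0.0105, under 1 CPM in both groups, adjusted p = 0.0579 without C1) inside PTBP1, so their reads cannot be told from those of the host genes.

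Other contents of the azurophil granule moved in both directions. Of 18 tested genes on this list, 10 fell, 5 rose and 3 were not called, with a median log2 fold change of -0.25. Their summed level was nevertheless higher with the NFIC shRNA, at 2713 to 2731 CPM against 2307 to 2377 CPM in the scrambled samples. This rise was smaller than that of CTSD alone, from 403 to 880 CPM, so the rest of the list together did not rise. BPI, the bactericidal protein that binds endotoxin, rose from 2.01 ± 0.264 to 23.7 ± 0.814 CPM (log2 fold change 3.55, adjusted p = 4.14e-13), and CTSD, the aspartic protease cathepsin D, rose from 403 ± 23.0 to 880 ± 38.4 CPM (1.13, adjusted p = 3.23e-11). ARSA, the lysosomal enzyme arylsulfatase A, fell from 29.0 ± 2.46 to 8.53 ± 2.10 CPM (-1.76, adjusted p = 3.36e-08) and CD68, a membrane protein of lysosomes, from 261 ± 8.34 to 130 ± 8.56 CPM (-1.01, adjusted p = 1.37e-10). PRSS57, a further neutrophil serine protease, fell by 0.23 on the log2 scale (adjusted p = 0.0132), but without N3 the adjusted p was 0.0614. DEFA4, an alpha-defensin, fell from 3.21 to 1.90 CPM (-0.76, adjusted p = 0.00282). RNASE3, the close copy of RNASE2, fell from 5.21 to 3.80 CPM (-0.45, adjusted p = 0.0284). This call ended in DESeq2 (adjusted p = 0.0546) and without C4 (0.114), N1 (0.0569) or N2 (0.157). Its log2 fold changes went from -0.62 to -0.28 over the samples left out.

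Genes that process and store the granule proteins were split between directions. Of 9 tested, 3 rose, 2 fell and 4 were not called, with a median log2 fold change of -0.01. PDIA3 rose from 582 ± 21.9 to 756 ± 49.4 CPM (log2 fold change 0.38, adjusted p = 1.24e-05) and FURIN from 76.6 to 94.2 CPM (0.30, adjusted p = 8.54e-05). HSPA5 rose by 0.16 on the log2 scale (adjusted p = 0.0112), a call that ended with upper-quartile scaling (adjusted p = 0.0707) and without C1 (0.0562). CTSC, the cathepsin that removes the propeptide of the granule serine proteases, was at 160 ± 6.69 and 152 ± 2.03 CPM (adjusted p = 0.212), although it was called lower with upper-quartile scaling (log2 fold change -0.13, adjusted p = 0.0260). SRGN, the proteoglycan core on which the proteases are packed, was at 3401 ± 45.4 and 3619 ± 21.0 CPM (adjusted p = 0.106; 0.0400 in limma). CTSL, a cysteine protease of lysosomes, fell from 55.7 to 31.7 CPM (-0.82, adjusted p = 1.10e-07). CALR, a chaperone of the endoplasmic reticulum that assists the folding of myeloperoxidase, fell by 0.32 on the log2 scale (adjusted p = 0.0129). The adjusted p was 0.0533 in DESeq2, 0.0636 without N2 and 0.0560 without N3, and the log2 fold change was -0.19 without C3.

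Of 11 other inhibitors of proteases, 3 rose, 5 fell and 3 were not called. SERPINB9, the inhibitor of granzyme B, rose from 2.11 to 4.75 CPM (log2 fold change 1.17, adjusted p = 1.24e-05). SLPI, the secreted inhibitor of elastase and cathepsin G, rose from 71.2 ± 12.3 to 125 ± 27.0 CPM (0.81, adjusted p = 0.00352; 0.0644 with no filter on low counts), and CSTB, a cysteine protease inhibitor, rose by a log2 fold change of 0.75 to 50.3 CPM (adjusted p = 5.77e-08). CST7, another cystatin, fell from 7.44 ± 0.785 to 1.68 ± 0.461 CPM (-2.14, adjusted p = 2.84e-08). SERPINB6, which also binds cathepsin G, fell by 0.22 on the log2 scale (adjusted p = 0.00803), while SERPINB8 differed by 0.14 (adjusted p = 0.189), or by 0.27 without C3 (adjusted p = 0.00278). SERPINB1, SERPINB6 and SERPINB9 thus did not share a direction.

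Of 21 genes for granule trafficking and release, 11 rose, 6 fell and 4 were not called, with a median log2 fold change of 0.24. MYO5A, a myosin that carries organelles, rose from 25.3 to 57.6 CPM (1.19, adjusted p = 7.90e-10) and RAB32, a small GTPase of lysosome-related organelles, from 38.3 to 75.2 CPM (0.97, adjusted p = 5.65e-10). RAB27A, the small GTPase that docks azurophil granules for release, fell from 265 ± 7.87 to 169 ± 4.11 CPM (-0.65, adjusted p = 5.60e-09).

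Of 23 tested genes on a further list, of transcription factors that control granule genes, 10 rose, 2 fell and 11 were not called, with a median log2 fold change of 0.16. CEBPA, the factor that starts granulocytic differentiation and binds the promoters of several granule genes, fell from 595 ± 37.4 to 419 ± 32.6 CPM (-0.51, adjusted p = 1.91e-06), and IRF8, which favours the monocytic over the granulocytic path, by 0.18 on the log2 scale (adjusted p = 0.00638). GFI1, a repressor needed for neutrophil development, rose from 311 ± 1.88 to 421 ± 8.92 CPM (0.44, adjusted p = 3.36e-07), and CEBPE, the factor of later granules, from 6.51 to 10.7 CPM (0.72, adjusted p = 4.08e-05). NFE2, GATA2 and CBFB rose by 0.54, 0.52 and 0.51 on the log2 scale (adjusted p = 6.33e-07, 0.00144 and 5.09e-07). MYB was at 467 ± 24.3 and 454 ± 7.46 CPM (adjusted p = 0.479) and RUNX1 at 233 ± 4.36 and 228 ± 6.85 CPM (adjusted p = 0.552). SPI1, which encodes PU.1, was at 166 ± 4.73 and 178 ± 9.53 CPM (adjusted p = 0.112; 0.0400 without N3). CEBPB rose by 0.25 on the log2 scale (adjusted p = 0.0454) with overlapping groups. Its adjusted p was 0.05 or more in 6 of 18 alternatives, those without C1, C3, N1 or N2 among them. It was also not called at an adjusted p under 0.01. With 1 sample left out its log2 fold change went from 0.14 without N2 to 0.34 without N3.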

How the data were processed

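Per the labels and the study's methods, mRNA libraries of the 6 THP-1 samples were sequenced in pairs, trimmed with Trim Galore, checked with FastQC, mapped to GRCh38 with STAR and assigned to genes of the Ensembl release 96 annotation with featureCounts; versions and the strand setting were not given in the sources used here. The authors deposited raw counts per gene, a normalised signal (each count divided by a DESeq2 size factor of its sample) and FPKM values, which scale that signal by gene length. The deposited log2 fold changes, their test score and the p-values of the authors' own comparison were not used.

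The members and gene lists were chosen with earlier results of these data known. Genes were filtered with edgeR's default rule (filterByExpr), library sizes were scaled by TMM, and the groups were compared with edgeR's quasi-likelihood test (R 4.3.3, edgeR 4.0.16) with Benjamini-Hochberg adjustment over all 19182 genes, a call being an adjusted p under 0.05. For the members the fold changes and standard errors of this fit are given without p-values. CPM values are counts per 1000000 counts of the TMM-scaled library size. The precision of a count is limited by total counts of 20369543 to 24809720 per sample and by the 3 samples per group, where an exact permutation test could not go below p = 0.1. Genes were named by size, up to 4 per list and direction among called genes that averaged 1 or more in log2 CPM and whose groups were apart, and others by name. Gene positions are from GENCODE 44 (GRCh38) and promoter sequences from RefSeq (GRCh38.p14). Alternatives were other scalings, DESeq2 1.42.0 and limma 3.58.1 (on log2 of the deposited normalised count plus 1), other filters, a stricter threshold, the replicate number as a block, and leaving out each sample; leaving out C3 and N3 together was chosen after seeing the data. The code was tested on simulated counts.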

Additional observations from a re-analysis of the deposited data

How the results depend on the processing

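No member's log2 fold change changed sign in the alternatives run, which is a description, since the members were chosen on this contrast; that of MPO lay between -0.37 (without C1) and -0.12 (without C3). The summed level of the members with the NFIC shRNA over scrambled, 0.670, was 0.595 without LYZ and 0.661 in FPKM. Genes called, 11486 in all, ranged from 10443 to 11300 with 1 sample left out and were 9307 at an adjusted p under 0.01, 10475 in DESeq2 and 11025 without C3 and N3. Replicate numbers did not pair the samples (correlations of deviations 0.0563, -0.0862 and -0.0446; by title 0.0563, 0.145 and 0.0267), and a fit blocked on that number called 10983 genes, or 12099 genes when blocked on the title number; no named gene lost or gained a call with the replicate block. The median log2 fold change of the processing and storage list was 0.0092 with total counts, 0.0066 in limma and from -0.034 to 0.019 with a sample left out. That of the erythroid list (1 gene) lay between -0.18 and 0.058 with a sample left out and was 0.040 without C3 and N3 and -0.95 with no filter on low counts, where more genes of the list enter. That of the specific granule list lay between -0.049 (without C3) and 0.097 with a sample left out and was -0.014 without C3 and N3. The causes were not tested.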

Other observations

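Granule genes of later stages and markers of the progenitors that make azurophil granules were also examined, as lists chosen with earlier results of these data known. Of 13 tested specific granule contents, 4 fell and 3 rose. CHI3L1, a chitinase-like protein, fell from 1625 ± 10.6 to 192 ± 31.3 CPM (log2 fold change -3.08, adjusted p = 3.28e-10 in edgeR), and MMP9, the gelatinase, from 10.7 to 5.06 CPM (-1.08, adjusted p = 3.11e-06). ITGAM, the integrin chain CD11b, rose from 50.4 ± 0.349 to 100 ± 11.5 CPM (0.99, adjusted p = 4.06e-09). Lactoferrin (LTF) had almost no counts in either group.

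Of 11 tested markers of myeloid progenitors, 7 fell and 3 rose, with a median log2 fold change of -0.50, beside 30.3% lower and 29.6% higher among all genes tested. CD33 and CSF1R are also on the monocyte list, so the counts of the lists overlap. The receptor genes KIT, FLT3 and CSF1R were among the 7 that fell, from 19.3 to 9.12, from 95.4 to 54.4 and from 219 to 146 CPM (adjusted p = 1.43e-06, 3.77e-09 and 1.53e-06). The 3 that rose were CD99, from 71.5 to 148 CPM, CD244, from 4.84 to 9.49 CPM, and CD38, from 44.4 to 82.9 CPM (adjusted p = 4.40e-09, 3.29e-05 and 1.82e-09). Among paralogs of the members 10 of 16 fell and 2 rose, and PRSS57, RNASE3 and the SERPINB genes among them are also counted in lists above. MS4A6A, a relative of MS4A3, fell from 80.0 to 28.5 CPM (-1.49, adjusted p = 5.93e-10), whereas MS4A7 rose from 96.4 to 125 CPM (0.38, adjusted p = 8.78e-06). LPO, the relative of MPO, fell from 56.8 to 40.3 CPM (-0.49, adjusted p = 1.12e-04). Markers of other lineages were low: the summed level was 7.35 to 9.11 CPM in the scrambled samples and 4.61 to 5.81 CPM with the NFIC shRNA for 11 eosinophil and mast cell genes in the table, 11.5 to 12.2 and 5.29 to 5.90 CPM for 6 lymphoid genes, 8.27 to 10.2 and 7.93 to 10.6 CPM for 4 erythroid genes, and 5.32 to 6.14 and 0.997 to 2.03 CPM for 4 epithelial and kidney line genes. Their part in the members' differences was not tested.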
